A study of Rattus norvegicus with 84 samples.

Results

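Messenger RNA in plasma-derived extracellular vesicles (EVs, membrane-bound particles that cells release and that carry RNA in the blood) was compared between rats 4 days after stroke and healthy rats. The comparison used 6 of the 84 libraries of the series, 3 from control rats at day 4 and 3 from healthy rats, chosen by the tissue, group and time in the sample labels. It covered the 18782 annotated genes among the 26637 features of the count table. All rats were wild-type male Sprague-Dawley rats. In the control rats, aged 8 to 12 weeks, the middle cerebral artery was occluded for 90 min, and saline was injected into the re-opened carotid artery on day 3, so their plasma was taken 1 day after a second neck operation. The healthy rats were adults of no stated age, and no operation, anesthesia or injection is described for them before sampling, so stroke, surgery, anesthesia and injection cannot be told apart here. The study also had control rats at days 10 and 31, and rats given human neural stem cells (hNSCs) in place of saline and sampled at days 4, 10 and 31. Plasma EVs were isolated by size exclusion chromatography, which separates particles from soluble protein by size, and each library came from a different rat.

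RNA in plasma EVs comes from many sources, among them red cells, platelets, white cells, the vessel wall and the liver. Reticulocytes, the youngest circulating red cells, still hold RNA and shed vesicles while they remodel their membrane and lose their remaining organelles. Acute brain injury is known for a fall of circulating lymphocytes, a rise of neutrophils and a release of glucocorticoid hormone from the adrenal gland. In pooled vesicles, fewer cells or vesicles of a type and less RNA in each of them cannot be told apart.

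The 6 libraries held 24655822 to 42197219 counts, with 58.3% to 75.3% of them on annotated genes, and 9962 to 13661 such genes were detected with at least 1 count. The most abundant mRNAs by the authors' FPKM, a value per length and depth, were the hemoglobin alpha chains Hba2 (mean 8913 over the 6 libraries) and Hba1 (7798), whose near-identical sequences make their split uncertain, followed by the ribosomal protein Rplp1 (3318), the ferritin heavy chain Fth1 (2533) and the ribosomal protein Rps23 (2328). EV membrane proteins were represented by Cd9 at 45.6, 56.6 and 150 CPM (read counts scaled to library size) in control rats and 101, 372 and 32.0 CPM in healthy rats, and by Cd63 at 68.8, 48.3 and 86.8 CPM against 40.3, 78.1 and 8.23 CPM. The correlation of log2 CPM between libraries was 0.64 to 0.71 within the control group, 0.72 to 0.79 within the healthy group and 0.65 to 0.74 between the groups, as a description over genes.

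Single libraries stood apart in several gene lists. Control rat 2 had a summed level of 1238 CPM over 35 liver genes, against 17195 and 33196 CPM in the other control rats and 3257 to 8845 CPM in healthy rats. Healthy rat 2 had 37657 CPM over 35 platelet genes, against 4116 and 3095 CPM in the other healthy rats and 3525 to 10741 CPM in control rats. Control rat 2 was also far below the other control rats in the summed level of acute-phase, complement and coagulation, and skeletal muscle genes and far above them in that of monocyte genes. Healthy rat 2 was far above the other healthy rats in the sums of the neuronal and class I antigen presentation lists. Most of its neuronal sum of 2400 CPM was Nrgn at 2209 CPM, which is also in the platelet list. Most of its class I sum of 8376 CPM was B2m at 6941 CPM.

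Of 14720 genes tested with edgeR's quasi-likelihood test, 14 passed both the threshold of 0.05 on the adjusted p (Benjamini-Hochberg) and that of 1.5 on the fold change, and are named called genes here. In control rats at day 4, 12 were lower (0.0815% of the genes tested) and 2 were higher (0.0136%). The values of all 14 did not overlap between the groups, as in 8.4% of all tested genes in the lower direction (1237 genes) and 4.06% in the higher direction (597 genes). The median log2 fold change of all genes was −0.12. At an unadjusted p under 0.05, 672 genes were lower (4.57%) and 210 were higher (1.43%). The number of calls depended on single libraries and on the spread shared by the 21 plasma libraries. Without control rat 2, 0 genes were called (667 at an unadjusted p under 0.05), and with only the 6 libraries in the fit 0 were called as well (797). Without healthy rat 1 there were 4 calls, with 4 of the 14 genes among them. Without control rat 1 there were 7 calls, with 4 of the 14 among them. Without healthy rat 3 there were 8 calls and without control rat 3 there were 13, each with 7 of the 14 among them. DESeq2 on the full design called 712 lower and 195 higher of the 17965 genes in its fit, and limma on log2(FPKM + 1) called 2 and 3 of 11244. The direction of the 14 genes was the same under each of these settings.

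**Figure D1:**
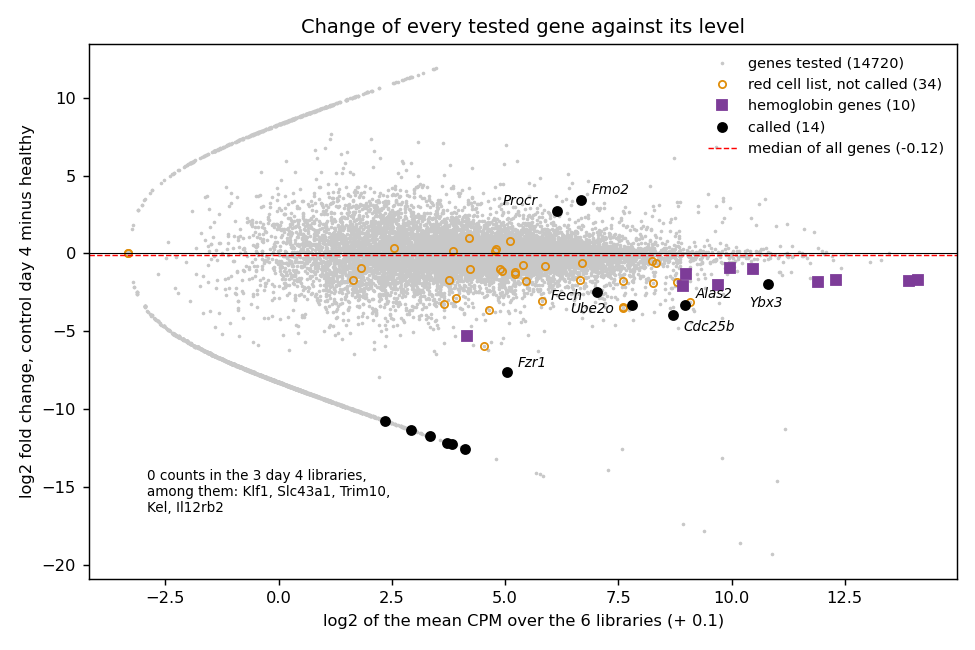
Log2 fold change of each of the 14720 tested genes (control day 4 minus healthy, vertical axis) against its level, the log2 of the mean CPM over the 6 libraries plus 0.1 (horizontal axis). Black points are the 14 called genes, purple squares the 10 hemoglobin genes and orange rings the other genes of the red cell list. The hemoglobin genes all lie below the median of −0.12, and the 6 called genes on the lower curve had no count in the control rats.

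The called genes that were lower at day 4 were led by genes of red cell formation. Alas2, the erythroid enzyme of the first step of heme synthesis, stood at 72.6, 112 and 92.6 CPM in control rats and 942, 504 and 1297 CPM in healthy rats. Its mean was 92.3 ± 19.5 CPM (SD, n = 3) against 914 ± 397 CPM, a log2 fold change of −3.31 (SE 0.51, adjusted p = 0.00924). Fech, the ferrochelatase that inserts iron in the last step of heme synthesis, stood at 65.0, 29.6 and 23.7 CPM in control rats and 223, 144 and 302 CPM in healthy rats. Fech fell by 2.50 on the log2 scale (SE 0.48, adjusted p = 0.0381). Both ends of the heme pathway were thus lower in every control rat than in every healthy rat.

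Membrane and regulatory genes of the red cell lineage had no count in any control rat. Kel, a blood group membrane protein, had 0 counts in the 3 control libraries and 347, 116 and 1522 counts in healthy rats. Against a floor of 3 counts over the control group it was at least 681-fold lower (adjusted p = 0.0248). Trim10, a RING finger protein of erythroid cells, had 0 counts against 553, 87 and 868 and was at least 518-fold lower (adjusted p = 0.0204). Klf1, the transcription factor that drives adult globin and other red cell genes, had 0 counts against 414, 114 and 196 and was at least 249-fold lower (adjusted p = 0.0381). Each was present in all 3 healthy rats, at 7.59 to 64.6 CPM across these 3 genes. The bounds cover counting error only, since these mRNA libraries carried no molecular identifiers.

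The remaining lower genes were not in the red cell list, apart from what is known of some of them in maturing red cells. Ube2o, a ubiquitin-conjugating enzyme that clears ribosomes and other proteins from reticulocytes, stood at 35.5, 41.6 and 43.4 CPM against 325, 286 and 605 CPM, a log2 fold change of −3.33 (SE 0.50, adjusted p = 0.00756). Its control values differed by little, and the lowest healthy value was far above them. Cdc25b, a phosphatase that activates cyclin-dependent kinases, stood at 26.3, 69.3 and 56.8 CPM against 786, 471 and 1093 CPM (log2 fold change −3.95, SE 0.69, adjusted p = 0.0278). Ybx3, a nucleic acid binding protein that represses translation, was the most abundant called gene, at 688, 715 and 810 CPM against 2617, 2255 and 3580 CPM (log2 fold change −1.93, SE 0.38, adjusted p = 0.0381). Fzr1, an activator of the anaphase-promoting complex, had 21, 0 and 0 counts in control rats and 3010, 315 and 1946 counts in healthy rats, or 1.03, 0 and 0 CPM against 85.4, 27.5 and 82.5 CPM (log2 fold change −7.61, SE 1.22, adjusted p = 0.0204). Slc43a1, a transporter of large neutral amino acids, had 0 counts against 968, 91 and 223 and was at least 440-fold lower (adjusted p = 0.0126). The plot of the called genes by rat shows a gap between the groups for each of these genes.

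**Figure D2:**
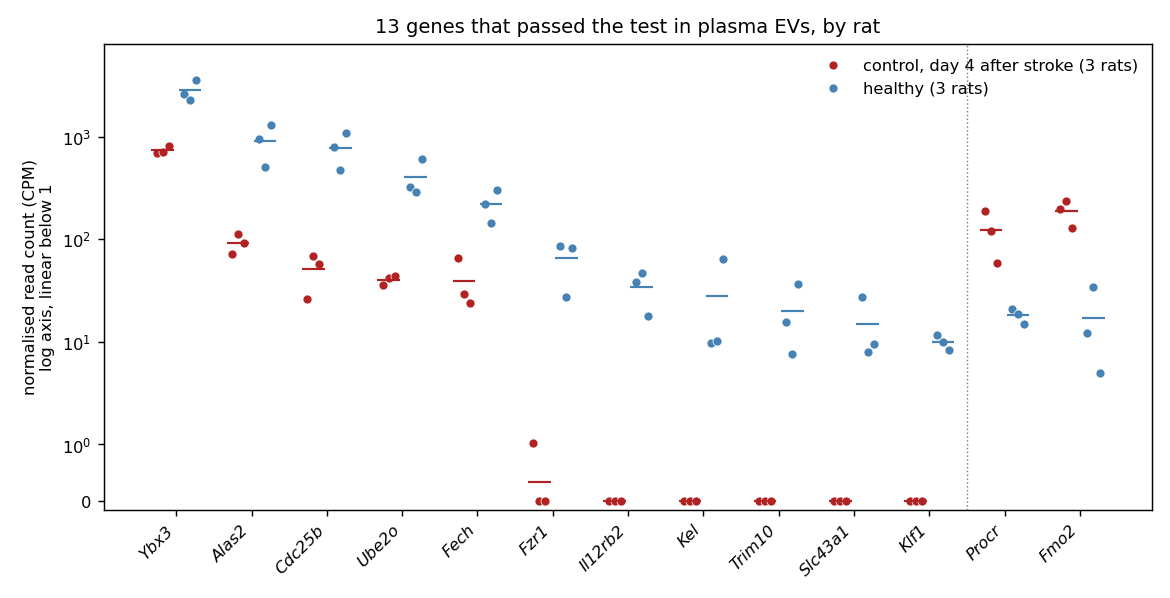
Normalised read count (CPM, log axis that is linear below 1) of 13 called genes in each rat, with control rats at day 4 in red, healthy rats in blue and group means as lines. The groups do not overlap for any gene: the 11 genes left of the dotted line are lower at day 4, 5 of them at 0 in all 3 control rats, and Procr and Fmo2 are higher.

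Promoter sequences are shown for 3 of the red cell genes because each holds a word of the kind that GATA1, the main transcription factor of red cell formation, is known to bind. RefSeq promoter windows on GRCr8, a later build than the Rnor_6.0 used for the counts, were at hand for 12 of the 14 called genes. The search was for AGATAA and its variant AGATAG, then for TGATAA and its variant TGATAG, on both strands of the 250 bases before the start, where 27.0% of all 33469 promoters held at least 1 of them. They were found in 5 of 10 lower genes (Alas2, Fech, Kel, Klf1 and Trim10) and in 1 of the 2 higher genes (Fmo2). A match describes the letters and is not a site of binding. The sequences run 5′ to 3′ on the strand of the gene and end at the base before the start, with the word in capitals. In Alas2 (chrX:22895200-22895449, plus strand) AGATAA covers bases 136 to 131 before the start, in Klf1 (chr19:40158652-40158901, minus strand) TTATCA, the other strand of TGATAA, covers bases 26 to 21, and in Trim10 (chr20:1703470-1703719, minus strand) TTATCT, the other strand of AGATAA, covers bases 135 to 130.
Alas2: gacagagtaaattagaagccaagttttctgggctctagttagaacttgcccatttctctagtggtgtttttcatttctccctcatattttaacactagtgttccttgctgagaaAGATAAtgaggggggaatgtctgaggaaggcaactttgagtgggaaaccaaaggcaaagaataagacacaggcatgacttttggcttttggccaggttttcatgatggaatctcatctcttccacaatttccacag
Klf1: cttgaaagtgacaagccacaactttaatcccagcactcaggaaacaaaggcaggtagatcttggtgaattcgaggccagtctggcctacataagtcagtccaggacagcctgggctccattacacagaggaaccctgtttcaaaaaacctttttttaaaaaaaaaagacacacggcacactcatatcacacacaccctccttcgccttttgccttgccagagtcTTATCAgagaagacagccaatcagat
Trim10: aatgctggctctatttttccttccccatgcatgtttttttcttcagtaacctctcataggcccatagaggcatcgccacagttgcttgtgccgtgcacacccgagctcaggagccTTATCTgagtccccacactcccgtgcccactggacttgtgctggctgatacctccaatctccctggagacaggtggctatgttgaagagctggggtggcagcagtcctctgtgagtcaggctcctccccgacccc

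Beyond the 6 called members, the red cell list of 40 tested genes had groups without overlap in 20 genes, all lower at day 4, which is 50% against 8.4% of all genes. Its median log2 fold change was −1.70 beside −0.12 for all genes. DESeq2 called 13 of the 40 as lower, and limma on log2(FPKM + 1) called 0 of 38. The background for the DESeq2 counts of this and later lists is 712 lower and 195 higher of 17965 genes. For the counts at an unadjusted p under 0.05 it is 4.57% of all genes lower and 1.43% higher. Genes named from here on beyond the first 2 of each list were chosen after their values were seen. The band 3 anion exchanger Slc4a1 stood at 62.9, 35.8 and 0 CPM against 321, 126 and 624 CPM (log2 fold change −3.44, SE 1.44, adjusted p = 0.743). The beta spectrin Sptb stood at 63.0, 17.1 and 15 CPM against 234, 505 and 323 CPM (adjusted p = 0.115), and the membrane skeleton protein Epb41 at 220, 204 and 160 CPM against 591, 874 and 598 CPM (adjusted p = 0.202). These values did not overlap, but none of the 3 passed the test. Enzymes of the mature red cell were divided. Carbonic anhydrase Car2 stood at 87.8, 87.8 and 86.4 CPM against 262, 199 and 438 CPM (adjusted p = 0.159), and Bpgm, which makes the oxygen-affinity regulator 2,3-bisphosphoglycerate, at 146, 155 and 92.6 CPM against 378, 296 and 766 CPM (adjusted p = 0.195), both without overlap. The peroxiredoxin Prdx2 overlapped, at 209, 366 and 175 CPM against 288, 267 and 502 CPM, as did the biliverdin reductase Blvrb, at 35.7, 9.76 and 11 CPM against 63.5, 22.8 and 39.0 CPM, and the carbonic anhydrase Car1, at 0, 0 and 4.16 CPM against 8.85, 0 and 5.05 CPM.

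Other members of the list overlapped between the groups. Tfrc, the transferrin receptor that reticulocytes shed in vesicles, stood at 30.5, 0 and 42.4 CPM in control rats and 13.7, 9.77 and 13.1 CPM in healthy rats (log2 fold change 0.99, SE 1.57). Ahsp, the chaperone of free alpha globin, stood at 79.8, 20.2 and 28.3 CPM against 53.7, 31.7 and 138 CPM. The heme enzyme Cpox stood at 13.5, 26.8 and 45.9 CPM against 26.9, 27.6 and 23.5 CPM.

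All 10 tested hemoglobin genes had lower values in every control rat than in every healthy rat, beside 8.4% of all genes. Their median log2 fold change was −1.77, and none passed the edgeR test (lowest adjusted p = 0.115). At an unadjusted p under 0.05 all 10 were lower, DESeq2 called 7 of them and limma on log2(FPKM + 1) called 0. Hba2 stood at 10513, 8458 and 5690 CPM against 23846, 22138 and 35751 CPM (log2 fold change −1.73, SE 0.39), and Hba1 at 8657, 7516 and 4546 CPM against 22833, 16205 and 33241 CPM (log2 fold change −1.80, SE 0.44). The beta chain Hbb stood at 2059, 1708 and 1308 CPM against 5402, 4434 and 8026 CPM. As a share of all annotated counts, the 13 hemoglobin genes in the table made up 3.45%, 2.63% and 1.73% in control rats and 7.46%, 4.27% and 10.8% in healthy rats. Reads of these near-identical chains may have been split between genes, which the summed share does not depend on. The called genes were the same 14 when hemoglobin genes were left out before scaling.

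The 2 genes called as higher at day 4 were Procr and Fmo2. Procr, the endothelial receptor of the anticoagulant protein C, stood at 187, 121 and 58.9 CPM in control rats and 20.7, 18.8 and 14.9 CPM in healthy rats, and rose by a log2 fold change of 2.75 (SE 0.48, adjusted p = 0.0204). Fmo2, a flavin-containing monooxygenase best known from lung, stood at 196, 235 and 129 CPM against 12.3, 34.4 and 4.96 CPM, and rose by 3.44 (SE 0.65, adjusted p = 0.0296). The lowest control value of Procr was above the highest healthy value, and the same held for Fmo2. Of 22 endothelial genes, 4 were without overlap and higher (18.2% against 4.06% of all genes) and 1 lower, with a median log2 fold change of 1.15 and 0 called by edgeR (2 higher at an unadjusted p under 0.05, 2 higher by DESeq2, 0 by limma). Pecam1, an adhesion protein of endothelium and platelets, stood at 180, 222 and 102 CPM against 69.4, 69.8 and 86.5 CPM (adjusted p = 0.743), and Cdh5, the endothelial cadherin, at 19.3, 20.6 and 21.9 CPM against 7.49, 16.2 and 14.3 CPM (adjusted p = 1.00). Procr is not a member of that list.

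Il12rb2, the signalling chain of the interleukin 12 receptor of T and NK cells, was the 1 called gene with a known lymphoid role. It had 0 counts in the control rats and 1346, 541 and 420 counts in healthy rats, and was at least 792-fold lower (adjusted p = 0.0252). Among 25 tested genes of the T cell receptor complex and its signalling, 15 were lower without overlap (60% against 8.4% of all genes) and 0 higher, with a median log2 fold change of −2.64. The median was the same with the genes at 0 counts in a single group set to their bound, and likewise for every other list. In the T cell list these genes lie far below the median, so the replacement could hardly move it. None was called by edgeR (9 lower at an unadjusted p under 0.05, lowest adjusted p = 0.397), while DESeq2 called 6 as lower and limma called 0 of 21. Cd3e, a chain of the T cell receptor complex, had no count in control rats and stood at 14, 9.59 and 7.93 CPM in healthy rats (adjusted p = 0.743), and Cd3d stood at 12.5, 0 and 0 CPM against 28.7, 34.0 and 32.1 CPM (adjusted p = 0.920). The kinase Lck, which starts receptor signalling, stood at 6.65, 31.7 and 75.3 CPM against 232, 111 and 122 CPM. Cd8a, the coreceptor of cytotoxic T cells, stood at 6.60, 2.80 and 9.23 CPM against 37.4, 33.4 and 32.3 CPM, while Cd4 values overlapped at 12.0, 14.1 and 64.6 CPM against 73.1, 25.0 and 115 CPM. The low counts of several of these genes in control rats leave their fold changes poorly measured.

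Transcription factors and homing receptors of lymphocytes were better covered. Of 18 such genes, 11 were lower without overlap (61.1% against 8.4% of all genes) and 1 was higher (5.56% against 4.06%). Their median was −1.73 and 0 were called (6 lower at an unadjusted p under 0.05, 2 lower by DESeq2, 0 by limma). Tcf7, a factor of naive T cells, stood at 46.2, 26.5 and 106 CPM against 455, 248 and 318 CPM (log2 fold change −2.51, SE 0.78, adjusted p = 0.585). Lef1, its relative, stood at 22.6, 18.5 and 38.2 CPM against 129, 66.7 and 59.3 CPM (adjusted p = 0.743), and Bcl11b, needed for T cell identity, at 1.56, 8.31 and 12.7 CPM against 91.1, 78.9 and 61.4 CPM (adjusted p = 0.259). Satb1, a chromatin organizer of T cells, stood at 123, 91.5 and 88.6 CPM against 358, 384 and 294 CPM.

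Genes of B cells and NK cells were described in the same way. Of 24 B cell genes 11 were lower without overlap (45.8% against 8.4% of all genes). Their median was −2.01 and 0 were called by edgeR (5 lower at an unadjusted p under 0.05, 2 by DESeq2, 0 by limma). Ms4a1, which encodes CD20, stood at 0, 0.587 and 1.54 CPM against 16.6, 10.7 and 30.4 CPM. Spib, a transcription factor of B cells, stood at 17.5, 19.4 and 20.8 CPM against 122, 38.9 and 154 CPM (adjusted p = 0.743). Of 23 NK cell and cytotoxic granule genes 5 were lower without overlap (21.7% against 8.4% of all genes). Their median was −1.26 and 0 were called (2 lower at an unadjusted p under 0.05, and by DESeq2 3 lower and 1 higher). The perforin gene Prf1 had no count in control rats and stood at 19.0, 2.70 and 9.88 CPM in healthy rats (adjusted p = 0.416), and Nkg7 stood at 0, 0 and 13.7 CPM against 10.4, 14.9 and 17.1 CPM. Of 40 genes of mitosis and DNA replication 13 were lower without overlap (32.5% against 8.4% of all genes). Their median was −1.05 and 0 were called (6 lower at an unadjusted p under 0.05, 5 by DESeq2). The proliferation marker Mki67 stood at 15.9, 37.8 and 12.0 CPM against 77.2, 201 and 50.1 CPM (adjusted p = 0.743).

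**Figure D3:**
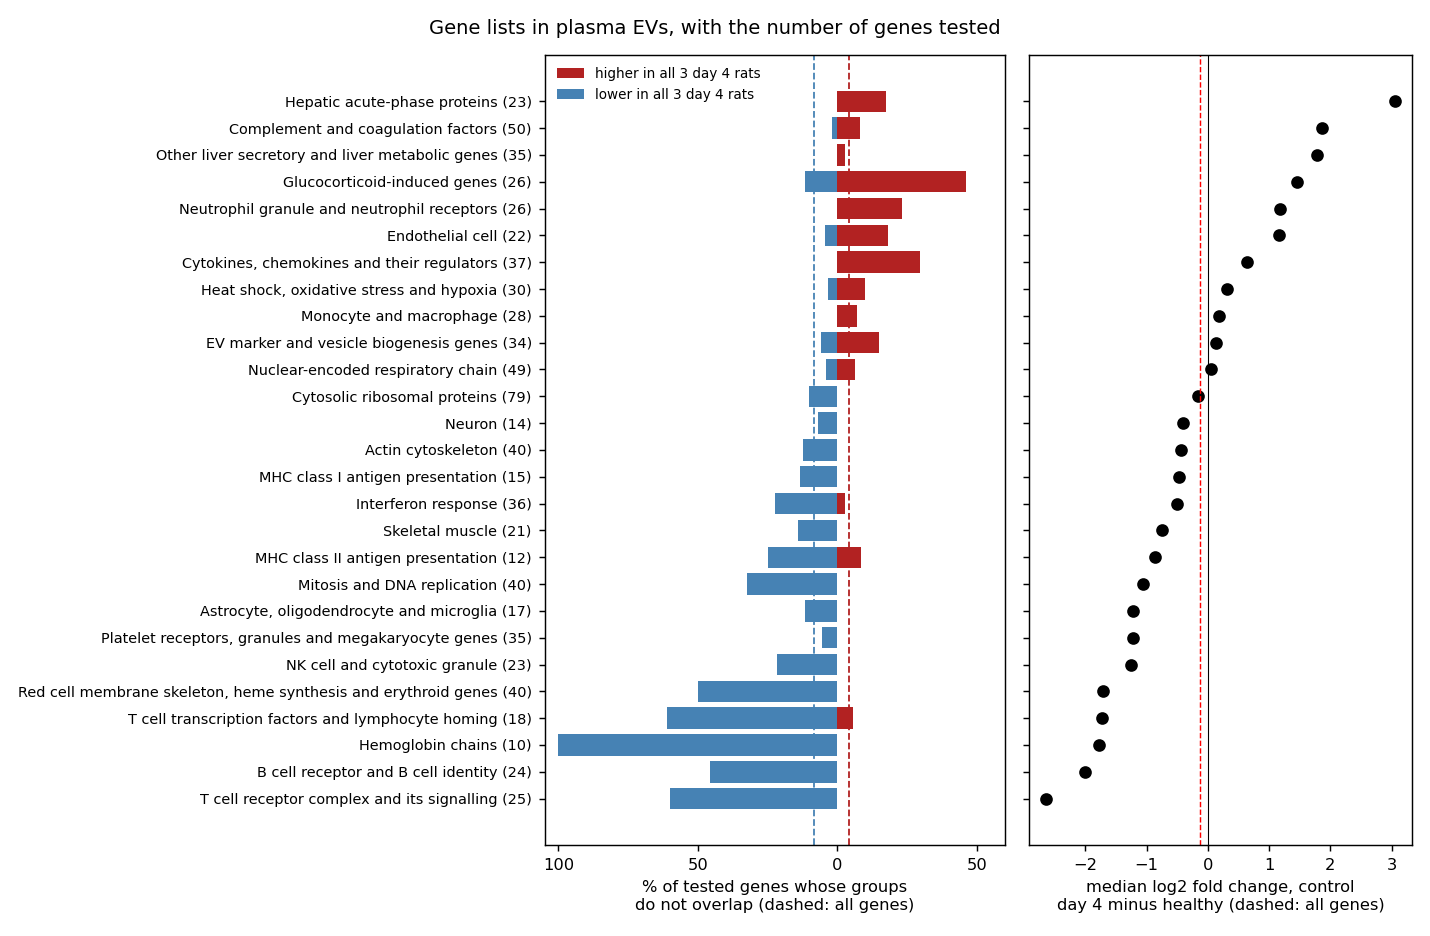
Share of the tested genes of each of 27 lists whose groups do not overlap (left, red for higher and blue for lower in control rats at day 4, in percent) and the median log2 fold change of each list (right), with dashed lines for all tested genes and list sizes in brackets. Hemoglobin, lymphocyte and T cell lists hold the largest shares of lower genes, at 100%, 61.1% and 60%, and the glucocorticoid list the largest share of higher genes, at 46.2% against 4.06% of all genes.

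Genes known to be induced by glucocorticoid hormone had higher values in control rats. Of 26 tested genes 12 were higher without overlap (46.2% against 4.06% of all genes) and 3 were lower (11.5% against 8.4%), with a median log2 fold change of 1.46. None was called by edgeR (10 higher at an unadjusted p under 0.05, lowest adjusted p = 0.185), while DESeq2 called 5 as higher and limma 0. Tsc22d3, which encodes the glucocorticoid-induced leucine zipper, stood at 502, 284 and 528 CPM in control rats and 106, 186 and 176 CPM in healthy rats (log2 fold change 1.49, SE 0.36, adjusted p = 0.185). Fkbp5, a chaperone that dampens the glucocorticoid receptor, stood at 170, 257 and 157 CPM against 80.3, 141 and 44.1 CPM (log2 fold change 1.14, SE 0.40, adjusted p = 0.743). The transcription factor Cebpd stood at 147, 142 and 91.6 CPM against 20.2, 8.81 and 36.5 CPM (log2 fold change 2.54, SE 0.63, adjusted p = 0.202), and the clock gene Per1 at 55.8, 61.5 and 36.6 CPM against 9.39, 16.7 and 31.1 CPM. The summed level of the list was 2550, 2672 and 2018 CPM in control rats and 940, 958 and 1194 CPM in healthy rats. The 3 lower members were Sesn1, Il7r and the receptor itself, Nr3c1, which stood at 101, 54.7 and 84.3 CPM against 104, 112 and 147 CPM. Il7r, the receptor of the lymphocyte survival factor interleukin 7, is also a member of the lymphocyte list.

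Inflammatory and neutrophil genes were also mostly higher in value. Of 37 cytokine, chemokine and regulator genes 11 were higher without overlap (29.7% against 4.06% of all genes) and 0 lower. Their median was 0.63 and 0 were called by edgeR (4 higher at an unadjusted p under 0.05, lowest adjusted p = 0.162, 3 higher by DESeq2, 0 by limma). The cytokine Il1b stood at 148, 187 and 85.7 CPM against 24.2, 14.3 and 52.5 CPM (adjusted p = 0.743), whereas Il1a was near the detection limit at 0, 0 and 14.6 CPM against 6.78, 9.16 and 1.78 CPM. Lgals3, the galectin of activated macrophages, stood at 241, 774 and 392 CPM against 46.6, 76.7 and 108 CPM (log2 fold change 2.60, SE 0.61, adjusted p = 0.162). Nfkbia, the NF-κB inhibitor that NF-κB itself induces, stood at 313, 424 and 210 CPM against 93.5, 67.7 and 123 CPM (adjusted p = 0.202). Nfkbia is also a member of the glucocorticoid list and is counted as higher without overlap in both lists. Of 26 neutrophil genes 6 were higher without overlap (23.1% against 4.06% of all genes) and 0 lower. Their median was 1.17 and 0 were called (2 higher at an unadjusted p under 0.05, and by DESeq2 1 higher and 1 lower). Without control rat 2 the median of the neutrophil list was 0.53. The calprotectin subunits S100a8 and S100a9, abundant in neutrophil cytoplasm, stood at 43.6, 323 and 78.9 CPM against 9.65, 7.06 and 23.3 CPM and at 373, 1757 and 413 CPM against 65.7, 62.9 and 135 CPM (adjusted p = 0.761 and 0.374). Control rat 2 was the highest for both. Of 28 monocyte and macrophage genes 2 were higher without overlap (7.14% against 4.06% of all genes), with a median of 0.18 and 0 called by edgeR (3 higher at an unadjusted p under 0.05, 1 by DESeq2), and the monocyte marker Csf1r stood at 14.2, 40.4 and 42 CPM against 35.0, 47.8 and 93.7 CPM.

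The lists of liver products were divided within the control group. Of 23 hepatic acute-phase genes 4 were higher without overlap (17.4% against 4.06% of all genes). The median log2 fold change was 3.05 and 0 were called by edgeR (2 higher at an unadjusted p under 0.05, 2 by DESeq2, 0 by limma). The 4 genes without overlap were Lbp, Cd14, Mt1 and Mt2A. Cd14 is also in the monocyte list, and Mt1 and Mt2A are also in the glucocorticoid list. Lbp, Mt1 and Mt2A were highest in control rat 2, so this share does not describe the liver genes that were low in that rat. The fibrinogen alpha chain Fga stood at 2247, 0.361 and 3056 CPM in control rats and 154, 433 and 112 CPM in healthy rats (adjusted p = 0.743), and haptoglobin Hp at 3197, 70.6 and 6104 CPM against 170, 474 and 175 CPM (adjusted p = 0.743). For both genes control rats 1 and 3 were above every healthy rat and control rat 2 was below every healthy rat. Control rat 2 was not low in every gene of the liver lists: the transferrin gene Tf stood at 3531, 945 and 6760 CPM against 807, 1565 and 663 CPM, and Lbp, the lipopolysaccharide binding protein, at 77.1, 273 and 74.5 CPM against 28.3, 8.37 and 32.4 CPM. The inhibitor A2m, a marker of the acute phase in rats, stood at 32.6, 0 and 40.2 CPM against 2.21, 0 and 0 CPM. Albumin (Alb), which is not an acute-phase gene of the rising kind, stood at 6184, 16.8 and 9534 CPM against 1478, 3325 and 1300 CPM (adjusted p = 1.00). Without control rat 2 the acute-phase median was 3.60, and that of 35 other liver genes was 2.35 in place of 1.78. Without control rat 3 the liver median was 0.61 and the acute-phase median stayed at 2.27 or above with any 1 library left out. The list of 50 complement and coagulation genes had 4 higher (8% against 4.06% of all genes) and 1 lower (2% against 8.4%) without overlap. Its median was 1.86 (1.09 without control rat 3), with 0 called by edgeR (5 higher at an unadjusted p under 0.05, 2 by DESeq2). Of the 35 liver genes 1 was higher without overlap (2.86% against 4.06% of all genes) and 0 were called (2 higher at an unadjusted p under 0.05, 1 by DESeq2). The part of the liver list in these results was not tested.

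**Figure D4:**
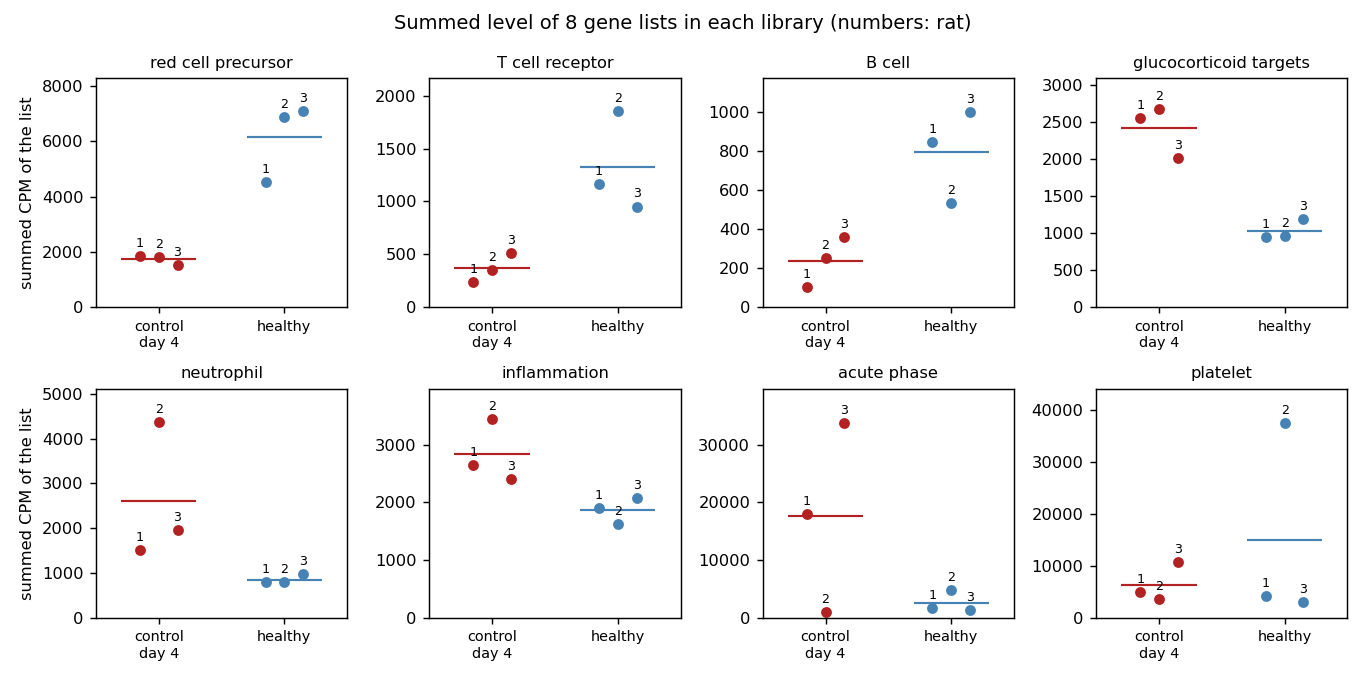
Summed CPM of 8 gene lists in each of the 6 libraries, with the rat number above each point and group means as lines. The red cell, T cell, B cell, glucocorticoid, neutrophil and inflammation lists separate the groups. The acute-phase list splits the control group, with control rat 2 at 1071 CPM, and the platelet list is set by healthy rat 2 at 37657 CPM.

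Platelet genes depended on a single library. The median of 35 platelet genes was −1.22 with all rats and 0.91 without healthy rat 2. Pf4, the main chemokine of platelet granules, stood at 935, 585 and 3688 CPM in control rats and 1121, 13466 and 729 CPM in healthy rats (adjusted p = 1.00), and Ppbp at 56.3, 12.8 and 29.4 CPM against 18.7, 403 and 9.63 CPM. With 2 genes lower without overlap (5.71% against 8.4% of all genes) and 0 called by edgeR (2 lower at an unadjusted p under 0.05, 1 by DESeq2), no direction can be given for this list. Without healthy rat 2, 12 of the 14 genes were called again.

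The remaining lists had medians closer to that of all genes or rested on few counts. The cytosolic ribosome genes (79 tested) had a median of −0.17, which turned to 0.04 with library size only as the scaling, and respiratory chain genes (49) 0.05. Neither list had a gene called by edgeR, DESeq2 or limma, or at an unadjusted p under 0.05. For the counts without overlap that follow, the shares of all genes were 8.4% lower and 4.06% higher. Among 36 interferon response genes 8 were lower (22.2%) and 1 higher (2.78%) without overlap, with a median of −0.51 and 0 called by edgeR (2 higher and 2 lower at an unadjusted p under 0.05, 2 lower by DESeq2). The interferon signalling factor Irf9 stood at 40.6, 31.7 and 23.4 CPM against 109, 212 and 80.9 CPM (adjusted p = 0.141), while Isg15 overlapped at 44.2, 4.02 and 9.70 CPM against 30.5, 11.5 and 25.9 CPM. Genes of antigen presentation had medians of −0.47 for class I (15 tested) and −0.87 for class II (12), with 0 called by edgeR (2 and 1 lower at an unadjusted p under 0.05, 1 and 2 lower by DESeq2), and Cd74 at 65.9, 201 and 274 CPM against 407, 149 and 435 CPM. The 40 actin cytoskeleton genes had a median of −0.44, with 5 lower without overlap (12.5%) and 0 called by edgeR (3 lower at an unadjusted p under 0.05) or DESeq2. For 30 genes of stress and hypoxia the median was 0.32, with 3 higher (10%) and 1 lower (3.33%) without overlap. Of these, 0 were called by edgeR (1 higher at an unadjusted p under 0.05, 1 by DESeq2). The 34 EV marker and biogenesis genes had a median of 0.14, with 5 higher (14.7%) and 2 lower (5.88%) without overlap and 0 called by edgeR (2 higher and 1 lower at an unadjusted p under 0.05) or DESeq2. Brain markers were scarce in plasma EVs: of 28 neuronal genes 14 could be tested, with a median of −0.40 that turned to 0.23 without healthy rat 2, and the median of 17 glial genes was −1.22, or 0 without that rat. In these lists 0 were called by edgeR (1 and 2 lower at an unadjusted p under 0.05), and DESeq2 called 2 neuronal genes lower and 1 higher and 1 glial gene lower. Among them the astrocyte marker Gfap stood at 29.9, 0.542 and 0 CPM against 2.38, 8.37 and 1.70 CPM (adjusted p = 1.00). Skeletal muscle genes, of interest after neck surgery, had a median of −0.74 in 21 tested genes, 9 of them at 0 counts in a group, which ranged from −8.07 without control rat 3 to 0 without healthy rat 2, with 0 called by edgeR (2 lower at an unadjusted p under 0.05, and by DESeq2 8 lower and 1 higher). Ckm, the muscle creatine kinase, stood at 0, 0 and 7.62 CPM against 7.26, 4.97 and 0.551 CPM.

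The other plasma groups show the levels of the called genes over time. They share the control day 4 or healthy rats with the main comparison, so their fold changes are not independent of it. Between control rats at day 4 and day 10, 60 genes were higher at day 10 (0.408% of the genes tested) and 4 lower (0.0272%), and 12 of the 14 genes were among those higher. Between day 4 and day 31, 28 genes were higher at day 31 (0.19%), again with 12 of the 14. In both comparisons these were the 12 genes lower at day 4. Alas2 stood at 2883, 2701 and 3010 CPM at day 10 and 1075, 1581 and 2631 CPM at day 31, so all 3 rats at day 10 were above the highest healthy rat at 1297 CPM. Fech stood at 1249, 765 and 915 CPM at day 10 and 193, 353 and 578 CPM at day 31. Klf1 was back at 59.1, 93.7 and 54.0 CPM at day 10 and at 5.50, 38.5 and 20.9 CPM at day 31. The day 31 values of these 3 genes thus overlapped those of healthy rats. The hemoglobin share followed, with 14.4% to 18% of annotated counts at day 10 and 6.90% to 17.6% at day 31. The levels of Procr at day 10 were 66.0, 110 and 72.6 CPM, within the range of the day 4 rats and above every healthy rat, and the log2 fold change from day 4 was −0.56 (SE 0.45, adjusted p = 0.887). Fmo2 stood at 79.5, 58.1 and 54.1 CPM at day 10 (log2 fold change from day 4 −1.55, SE 0.60, adjusted p = 0.581).

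Rats that received hNSCs gave a second set of libraries from day 4 after the same occlusion. Against the same healthy rats, 11 genes were lower (0.0747%) and 1 higher (0.00679%), and 3 of the 14 were called. Among these were Alas2 at 182, 42.1 and 176 CPM (log2 fold change −2.77, SE 0.50, adjusted p = 0.0365) and Fmo2 at 115, 372 and 86.6 CPM (log2 fold change 3.48, SE 0.65, adjusted p = 0.0365). Fech stood at 48.2, 94.8 and 58.2 CPM and Ube2o at 175, 89.7 and 293 CPM in these rats, and neither passed the test against healthy rats. Of the 12 genes lower in control rats, 7 were below every healthy rat in all 3 of these rats. Klf1 stood at 0, 0.254 and 16.3 CPM, Trim10 at 16.8, 0 and 10.97 CPM and Il12rb2 at 0, 27.4 and 7.65 CPM. These 3 genes, with no count in control rats, overlapped with healthy rats. Their log2 fold changes against healthy rats were −0.84 (SE 1.22), −1.11 (SE 1.08) and −1.56 (SE 1.35), and none passed the test. Between hNSCs and control rats at day 4, 1 gene was called, as lower (0.00679%), and it was none of the 14. The differences in Alas2 (log2 fold change 0.53, SE 0.47, adjusted p = 1.00) and Procr (−0.55, SE 0.45, adjusted p = 1.00) did not pass the test, which does not show that the groups were alike.

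**Figure D5:**
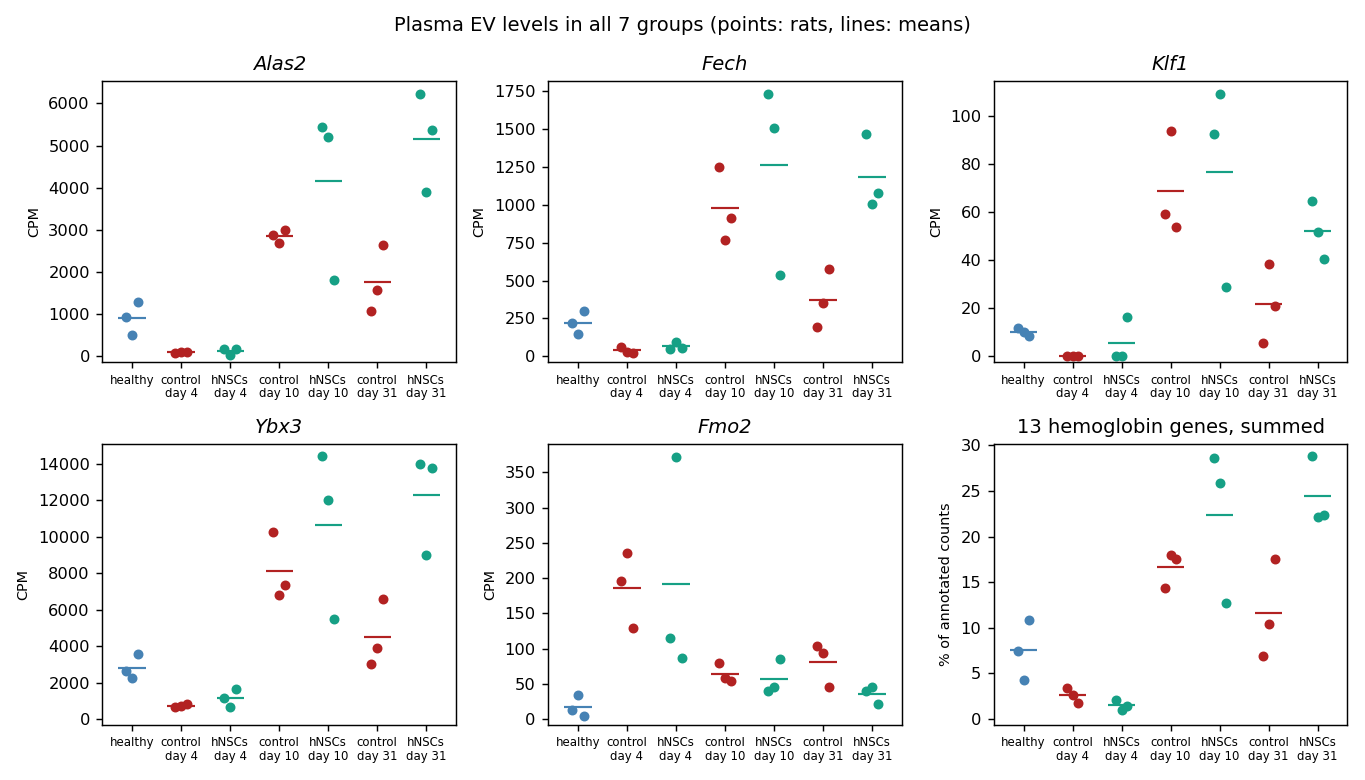
Levels of Alas2, Fech, Klf1, Ybx3 and Fmo2 (CPM, linear axes) and the share of annotated counts from 13 hemoglobin genes (percent) in the 3 rats of each of the 7 plasma groups, with means as lines. By their means the red cell genes and hemoglobin are lowest in both day 4 groups and above the healthy mean at days 10 and 31, while single rats of these groups overlap with healthy rats, and the mean of Fmo2 is highest in the day 4 groups.

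EVs were also isolated from brain, and the change from healthy to day 4 was compared between plasma and brain by an interaction term over 42 libraries. The difference passed an adjusted p under 0.05 for 34 genes, 31 more negative in plasma (0.183% of 16945 genes tested) and 3 more positive (0.0177%). Fzr1 and Ybx3 were the 2 of the 14 genes among them. Fzr1 had 465, 300 and 338 counts in brain EVs of control rats and 60, 205 and 343 in those of healthy rats, a log2 fold change of 0.35 in brain against −7.64 in plasma. Ybx3 had 2176, 815 and 1234 counts against 129, 229 and 236, a log2 fold change of 2.09 in brain against −2.0 in plasma. Plasma and brain libraries of a rat were not tied in this fit.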

How the data were processed

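Plasma EVs were isolated by size exclusion chromatography (the labels call the starting material serum in 1 place and plasma elsewhere), and their total RNA was extracted with a miRNeasy kit and sequenced from stranded total RNA libraries without molecular identifiers. The authors aligned reads to Rnor 6.0 and deposited read counts per gene, together with FPKM values from StringTie (per length and depth). The counting tool and its strand setting are not given in the sources used here, so reads of overlapping antisense genes may not be told apart. All columns were mapped to samples by name, with 0 left unmapped.

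The deposited counts of annotated genes, the 18782 of 26637 features that are not new transcripts, were filtered by expression and scaled by TMM in edgeR 4.0.16 (R 4.3.3), and the quasi-likelihood test was fitted over the 21 libraries of 7 plasma groups, which share 1 estimate of the spread. A call needed a fold change beyond 1.5 and an adjusted p (Benjamini-Hochberg) below 0.05. CPM values use the TMM-scaled library sizes. DESeq2 1.42.0 on the counts and limma 3.58.1 on log2(FPKM + 1), with genes at FPKM of 1 or more in 3 libraries, were alternatives, and fold changes on the latter scale understate those of low genes. For a single gene outside such a fit, an exact permutation test of 3 against 3 rats could not go below 0.1. Groups at 0 counts were bounded with a floor of 3 counts over the group. The script was tested on simulated data. Figures were drawn with matplotlib 3.10.9 (Python 3.11.15, numpy 2.4.6, pandas 2.3.3).

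Of 849 genes in 27 lists, 825 were in the table and 786 were tested. The comparison, the members and the lists were chosen with earlier results of these data known. The genes named by rule were the 5 most abundant, the called genes with the largest change or the lowest adjusted p in each direction, and the first 2 tested genes and called members of each list. Some of the genes that this rule names are not reported here. Deviations of same-numbered control and healthy rats correlated at 0.02, −0.21 and −0.18, so the numbers did not pair the rats. Promoter windows were taken from RefSeq on GRCr8.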

Additional observations from a re-analysis of the deposited data

Results flagged for a closer look

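The change from healthy to day 4 differed between plasma and brain EVs in 34 genes, by the interaction term of the edgeR quasi-likelihood fit, which is what marked the genes below. The log2 change in plasma minus that in brain was −7.99 for Fzr1 and −4.09 for Ybx3, both described above.

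Among genes that were not called in plasma, the difference was −7.22 for Fam46c, a poly(A) polymerase of red cell precursors and B cells, which had 372, 71 and 136 counts in brain EVs of control rats and 0, 0 and 10 in those of healthy rats. It was −3.76 for Itpkb, a kinase of inositol trisphosphate in lymphocytes. It was −5.93 for Ptprc, the CD45 phosphatase of white cells. The fitted difference of −13.72 for Blnk, an adaptor of the B cell receptor, rests on brain libraries at 0 counts in all healthy rats and is no bound.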

How the results depend on the processing

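The 14 genes kept their direction under every setting tried, and the counts of calls did not. Against 2 higher and 12 lower, DESeq2 called 195 and 712, limma on log2(FPKM + 1) 3 and 2, on log2(FPKM + 0.1) 0 and 1, and on log2(FPKM + 1) without a filter 0 and 2. The DESeq2 calls held all 14 genes, and those of the limma fits, in the same order, held 4, 1 and 0 of them. A fit of only the 6 libraries called 0 and 0, and an unadjusted p under 0.05 gave 210 and 672. Leaving out 1 rat at a time gave 0 to 3 higher and 0 to 12 lower genes, with 0 and 0 without control rat 2, 1 and 6 without control rat 1, 0 and 4 without healthy rat 1, 1 and 7 without healthy rat 3 and 1 and 12 without healthy rat 2. The 3 and 10 calls without control rat 3 held 7 of the 14 genes. With the replicate number as a block over the 6 libraries, the replicate block fit called 0 and 0 (298 genes at an unadjusted p under 0.05), and the rats share only a number. The same 14 were called with RLE factors and without hemoglobin genes, and 13 of them without a count filter or with library size only, a scaling chosen after seeing the data. The 34 genes that differed between plasma and brain were 18 with RLE factors and 13 to 48 with 1 library left out, the lower counts being 13 without brain healthy rat 1, 17 without brain control rat 1, 19 without plasma control rat 1 and 20 without brain healthy rat 3. The cause of these differences was not tested. Depth limits the genes at 0 counts, whose size is known only as a bound.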

Other observations

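Beside the called genes, 7 genes had 0 counts in all control rats at day 4 and a mean of at least 100 CPM in healthy rats. For 6 of them over 90% of the summed healthy level came from healthy rat 2, the library with the high platelet level. The other was Col2a1, a cartilage collagen, at 230, 7.15 and 88.8 CPM in healthy rats.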
